A study of Homo sapiens with 4 samples.

Results

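The nuclear genes of the mitochondrial respiratory chain and of ATP synthase were taken as 1 group, and the peaks of γH2AX at them were described in HepG2 cells. HepG2 is a human liver cancer cell line. γH2AX is the histone variant H2AX in its phosphorylated form, which forms in chromatin around DNA double-strand breaks. The members were the protein-coding genes of NCBI RefSeq (GRCh38.p14, the coordinates of hg38) on chromosomes 1 to 22 and X whose symbols begin with NDUF, SDHA to SDHD or SDHAF, UQCR, COX4 to COX8 or ATP5. The rule found 100 genes of 19821 protein-coding genes. It uses names only, and no measured value.

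γH2AX was mapped by CUT&Tag, in which an antibody guides a transposase to chromatin and the tagged DNA is sequenced. The lipid-overload library came from HepG2 cells titled PAOA, with no dose or time in the labels, and the mock library from HepG2 cells titled DMSO, both grown in DMEM with 10% FBS. Each assay used 100000 cells and 14 PCR cycles. There was 1 library per condition, so no difference below has a replicate check and no test between conditions was run. The series also holds 2 IgG control samples, which were not analysed here, so the part of any peak that owes to antibody-independent tagging was not tested.

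The respiratory chain passes electrons from NADH through complex I, and from succinate through complex II, to complex III, cytochrome c and complex IV, where oxygen is reduced. Complexes I, III and IV pump protons out of the mitochondrial matrix, and ATP synthase, also called complex V, lets them return and makes ATP. Breakdown of fatty acids delivers NADH and reduced flavins to this chain. Most subunits are encoded in the nucleus, and the genes of the mitochondrial genome were not among the members.

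The lipid-overload list held 27296 peaks and the mock list 8542. Solving the deposited fold and p of a peak for whole sequenced fragments gave a median over the summit of 9 in lipid overload and 5 in mock. The background levels in the files give the lipid-overload library 2.62 times the fragments of the mock library, and the part of depth in the longer list was not tested. Intervals in brackets are 95% intervals, exact Poisson for fragments and exact binomial for shares of genes, and cover counting error only.

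Respiratory genes had a γH2AX peak at a gene end in 65 of 100 cases in lipid overload (54.8 to 74.3%) and in 21 of 100 in mock (13.5 to 30.3%). A gene end is the 1 kb to either side of either end of the gene, and a peak counted when at least 1 bp lay there. Over all protein-coding genes, 43.4% had such a peak in lipid overload and 13.4% in mock. The share among respiratory genes was thus above that of coding genes in both libraries. Both lists marked 18 members, lipid overload alone 47 and mock alone 3, where the shares of all coding genes were 12.1%, 31.4% and 1.34%. With the lipid-overload list cut to the 8542 best peaks, 39 members were marked in lipid overload and 23 there only, against 25.9% and 15.9% of coding genes. With only those lipid-overload peaks kept that would still hold 5 fragments, the mock median, at mock depth, the counts were 30 and 16 members, against 19.6% and 11.3% of coding genes.

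With peaks anywhere inside the gene added, 71 members were marked in lipid overload and 26 in mock, beside 58% and 24.2% of coding genes. Respiratory genes are short, with a median length of 10.6 kb against 24.5 kb for coding genes, and few of their peaks lay inside. The best peaks of the 65 members marked in lipid overload held a median of 13 fragments, with quartiles of 9 and 19. The 21 marked in mock had a median of 7. For all marked coding genes the medians were 12 and 7 fragments in lipid overload and mock.

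**Figure D1:**
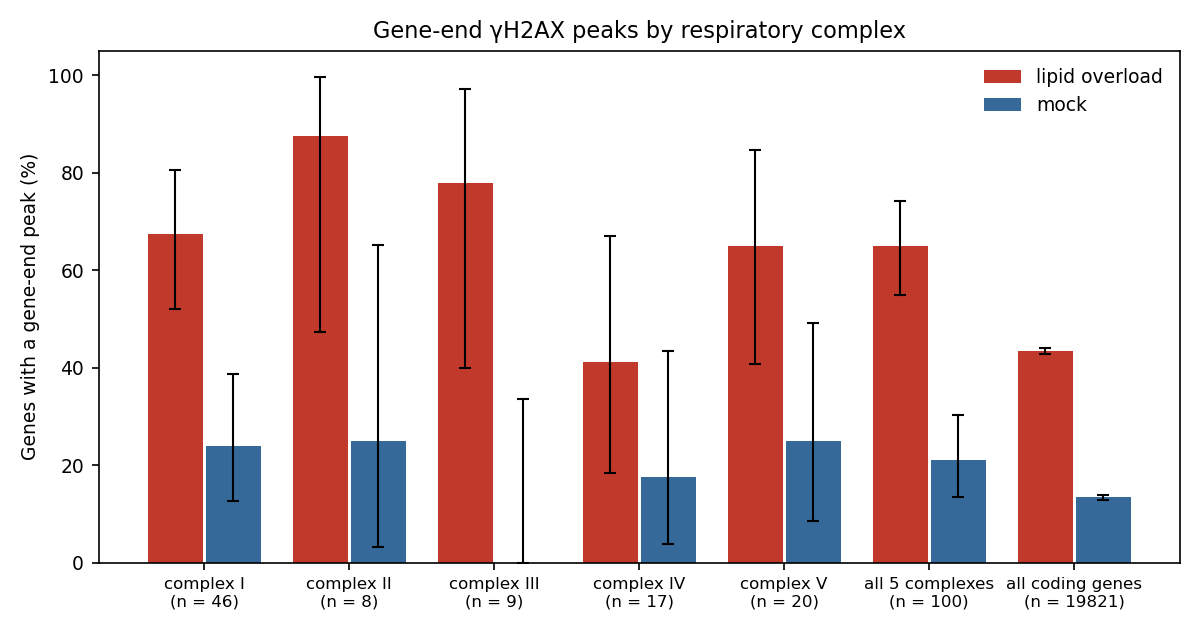
Share of genes with a gene-end peak (y axis, %) in lipid overload (red) and mock (blue), for the genes of each complex, for all 100 members and for all coding genes. Error bars are exact binomial 95% intervals that cover counting error only. Complex II stands highest in lipid overload at 87.5% and complex IV lowest at 41.2%. Complex III has no marked gene in mock, with an interval (0 to 33.6%) that takes in the 13.4% of coding genes.

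Almost all of these peaks lay at the start of the gene. The strand is known from the RefSeq promoter table for 82 members. Of these, 54 had a peak at the 5′ end in lipid overload (65.9%, 54.6 to 76.0) and 2 at the 3′ end, COX6A1 and NDUFA7. In mock 19 had one at the 5′ end (23.2%, 14.6 to 33.8) and 1, NDUFS6, at the 3′ end. Of the 15813 coding genes with known strand, 42.6% had a 5′ peak and 5.87% a 3′ peak in lipid overload, and 12.9% and 1.49% in mock.

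When every annotated start of a gene was used, 60 of the 82 members had a peak within 1 kb of a start in lipid overload (73.2%, 62.2 to 82.4) and 22 in mock (26.8%, 17.6 to 37.8). For coding genes the shares were 45.5% in lipid overload and 14.0% in mock. Summits sat just before the start. In lipid overload their median position was -66.5 bp, negative values being upstream, with quartiles of -142 and 11 bp. In mock it was -43.5 bp. Within 300 bp of a start lay 52 of the 60 summits in lipid overload (86.7%) and 18 of the 22 in mock (81.8%), against 78.8% in lipid overload and 75.7% in mock for coding genes.

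**Figure D2:**
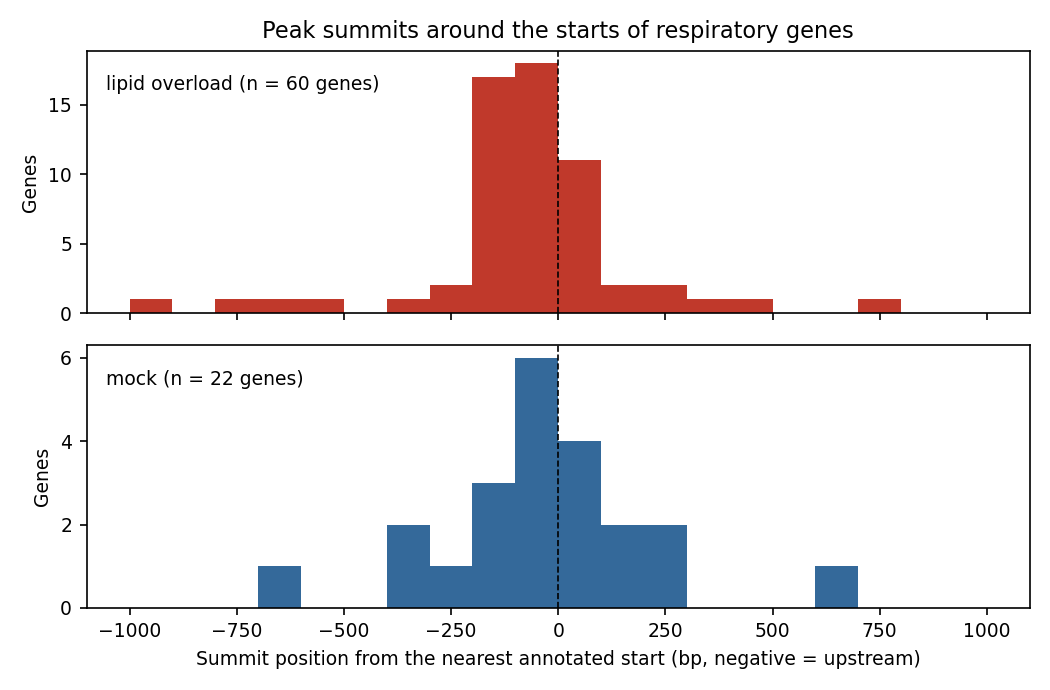
Position of the best peak's summit relative to the nearest annotated start (x axis, bp, negative values upstream) for members with known strand, as the number of genes per 100 bp bin (y axis), in lipid overload (top) and mock (bottom). In both panels the tallest bar is the one just upstream of the start.

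Promoters of respiratory genes are known for sites of NRF1, of the ETS factor GABP and of YY1. Short motifs of these factors were searched on both strands of the 300 bp promoter window, which runs from 250 bases before the start to 50 after it. The NRF1 motif, GCGC and any base and then TGCGC, stood in 20 of 82 member promoters (24.4%) against 8.61% of 15813 coding promoters. The ETS motif CCGGAAG stood in 24 (29.3%) against 14.1%, and the YY1 motif AANATGGC in 25 (30.5%) against 7.91%. The Sp1 motif GGGGCGG was found in 23 (28.0%) against 41.3%, and the TATA box TATAAA in 7 (8.54%) against 9.75%. Matches of 2 different motifs overlapped in 1 member promoter, with the ETS and Sp1 letters.

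At least 1 of the NRF1, ETS and YY1 motifs stood in 50 member promoters. Of these genes, 39 had a 5′ peak in lipid overload (78%, 64.0 to 88.5), against 15 of the 32 genes without any of them (46.9%, 29.1 to 65.3). In mock the counts were 12 of 50 and 7 of 32. Among all coding genes the same split was 64.5% against 34.7% in lipid overload, and 18.8% against 10.9% in mock, and a test of whether respiratory genes differ was not run. By motif, 21 of the 24 promoters with the ETS letters carried a 5′ peak in lipid overload (87.5%, 67.6 to 97.3), 15 of the 20 with NRF1 (75%) and 18 of the 25 with YY1 (72%). Among coding genes with the same letters the shares in lipid overload were 64.6% for ETS, 71.6% for NRF1 and 61.6% for YY1, so members with NRF1 letters were close to coding genes with them. In mock 3 of the 24 members with ETS letters carried a 5′ peak (12.5%, against 18.9% of coding genes), 6 of the 20 with NRF1 (30%, against 21.3%) and 7 of the 25 with YY1 (28%, against 17.1%). Of the 58 members without the ETS letters, 16 were marked in mock (27.6%, 16.7 to 40.9) and 33 in lipid overload (56.9%). For ETS the order in mock was thus the opposite of that in lipid overload. The mock intervals with the letters (2.66 to 32.4%) and without them overlap, so a reversal is not shown. A 5′ peak here lies at the outer end of the gene. ATP5F1A, ATP5MC2, COX7A2, NDUFAF3 and NDUFC1, without NRF1, ETS or YY1 letters, had a lipid-overload peak near another annotated start only. So did COX7A2L, with YY1 letters. All count here as without a 5′ peak, which widens the lipid-overload split. ATP5F1A, ATP5MC2 and COX7A2L also had such a mock peak, and counting these would turn the mock order.

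The base composition of the promoter also went with the peaks. Member promoters had a median G+C of 61.0%, with 62.3% at genes with a 5′ peak in lipid overload and 55.7% at those without. Coding promoters were split into 4 classes of like size by G+C. Among the 16 members in the lowest class (up to 53.7%), 4 had a 5′ peak in lipid overload (25%), against 15.4% of coding genes there. COX7A2, NDUFC1 and COX7A2L count in this class as without a 5′ peak. Each had a lipid-overload peak near another annotated start, while the G+C was read at the outer start. The part of this choice of start in the G+C contrasts was not tested. In the next 3 classes, upwards, the counts were 26 of 34, 16 of 21 and 8 of 11 members, against 43.4%, 56.9% and 55.2% of coding genes. In lipid overload the member share lay above that of coding genes in each class. Only in the class next to the lowest did its interval (58.8 to 89.3%) exclude the coding share. The intervals of the lowest class (7.27 to 52.4%) and of the upper ones (52.8 to 91.8% and 39.0 to 94.0%) took it in. An excess at every G+C level is therefore not shown. In mock the member shares, upwards, were 6.25%, 26.5%, 19.0% and 45.5%, against 4.83%, 13.7%, 17.9% and 15.5% of coding genes. The median G+C of member promoters with and without the letters was 63.3% and 60.7% for NRF1, 62.5% and 58.8% for ETS, and 61.7% and 61.0% for YY1. The part of G+C in the motif counts was not tested.

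The promoter windows below show these features, with RefSeq sequence of GRCh38.p14 read 5′ to 3′ along the gene and the letters of the 5 motifs, on either strand, in capitals. Shown are SDHA and NDUFA8, marked in both lists, UQCRC1, COX8A and ATP5PO, the strongest in lipid overload only, and NDUFS1 and COX6A2, which had no peak in either list.
SDHA (chr5:218070-218369, plus strand): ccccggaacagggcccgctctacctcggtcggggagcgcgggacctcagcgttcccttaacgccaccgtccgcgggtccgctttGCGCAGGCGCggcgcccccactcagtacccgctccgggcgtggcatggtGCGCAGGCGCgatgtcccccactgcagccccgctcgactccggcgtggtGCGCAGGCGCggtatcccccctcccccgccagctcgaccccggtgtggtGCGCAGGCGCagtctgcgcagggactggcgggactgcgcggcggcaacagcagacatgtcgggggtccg
NDUFA8 (chr9:122159730-122160029, minus strand): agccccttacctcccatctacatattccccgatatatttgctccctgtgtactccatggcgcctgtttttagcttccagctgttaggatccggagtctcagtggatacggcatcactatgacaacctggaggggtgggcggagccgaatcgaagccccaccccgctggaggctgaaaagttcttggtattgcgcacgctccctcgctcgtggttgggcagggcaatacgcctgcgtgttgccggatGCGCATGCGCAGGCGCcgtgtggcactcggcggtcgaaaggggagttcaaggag
UQCRC1 (chr3:48609597-48609896, minus strand): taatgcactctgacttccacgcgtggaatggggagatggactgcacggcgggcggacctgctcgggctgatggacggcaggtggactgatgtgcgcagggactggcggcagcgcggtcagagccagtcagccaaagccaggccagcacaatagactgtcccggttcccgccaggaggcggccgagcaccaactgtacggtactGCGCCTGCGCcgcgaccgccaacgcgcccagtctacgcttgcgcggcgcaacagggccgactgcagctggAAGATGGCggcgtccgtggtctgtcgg
COX8A (chr11:63974370-63974669, plus strand): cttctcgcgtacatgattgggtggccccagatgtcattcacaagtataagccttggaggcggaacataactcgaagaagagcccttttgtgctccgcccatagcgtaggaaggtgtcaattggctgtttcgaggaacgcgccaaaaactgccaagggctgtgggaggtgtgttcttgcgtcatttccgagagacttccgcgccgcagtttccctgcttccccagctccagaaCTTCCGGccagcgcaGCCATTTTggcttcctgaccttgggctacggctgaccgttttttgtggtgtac
ATP5PO (chr21:33915755-33916054, minus strand): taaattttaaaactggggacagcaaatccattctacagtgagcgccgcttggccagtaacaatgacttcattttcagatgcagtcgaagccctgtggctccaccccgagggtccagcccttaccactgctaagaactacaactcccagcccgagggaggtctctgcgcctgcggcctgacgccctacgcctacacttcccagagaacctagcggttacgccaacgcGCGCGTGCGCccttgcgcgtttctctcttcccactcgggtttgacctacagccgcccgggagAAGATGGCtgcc
NDUFS1 (chr2:206159395-206159694, minus strand): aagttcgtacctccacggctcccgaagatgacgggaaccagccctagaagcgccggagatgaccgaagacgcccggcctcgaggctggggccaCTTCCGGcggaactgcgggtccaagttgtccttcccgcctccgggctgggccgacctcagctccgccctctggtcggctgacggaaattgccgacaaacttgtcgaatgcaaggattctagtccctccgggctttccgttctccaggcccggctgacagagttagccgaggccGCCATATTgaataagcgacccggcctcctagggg
COX6A2 (chr16:31428311-31428610, minus strand): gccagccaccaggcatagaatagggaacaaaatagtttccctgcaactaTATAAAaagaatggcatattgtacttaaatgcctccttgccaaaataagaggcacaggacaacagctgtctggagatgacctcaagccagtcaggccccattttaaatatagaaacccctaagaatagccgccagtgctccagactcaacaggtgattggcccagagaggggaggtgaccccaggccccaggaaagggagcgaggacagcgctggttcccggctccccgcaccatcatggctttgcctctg

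In the SDHA window the NRF1 letters recur 4 times, beginning 166, 117, 68 and 19 bases before the start. NDUFA8 has NRF1 matches on both strands across its start, and UQCRC1 has 1 of them 47 bases before it, with a YY1 match after the start. COX8A holds ETS letters just before its start and YY1 letters across it, and ATP5PO an NRF1 match 24 bases before it and a YY1 match after it. NDUFS1 has ETS and YY1 letters as well and still had no peak. COX6A2, a heart and muscle isoform, has none of the 3 motifs and a G+C of 52%. A match is a run of letters and does not show that the factor binds there.

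Complex I takes electrons from NADH and is the largest of the complexes. Of its 46 genes, 31 carried a gene-end peak in lipid overload (67.4%, 52.0 to 80.5) and 11 in mock (23.9%, 12.6 to 38.8). Beside these stood 43.4% and 13.4% of coding genes, the latter within the mock interval. The 7 nuclear core subunits carry the flavin and the iron-sulfur clusters, and 4 of them were marked in lipid overload and 2 in mock. NDUFS8, which holds iron-sulfur clusters, had 29 fragments in lipid overload (19.4 to 41.6, chr11:68030359-68030670) and 11 in mock (5.49 to 19.7, chr11:68030670-68030872). These 2 peaks met only at their edges. NDUFS3 had 17 fragments in lipid overload and 5 in mock, in best peaks that did not overlap. A second lipid-overload peak there, of 14 fragments, overlapped the mock peak. The core genes NDUFV2 with 16 fragments (9.15 to 26.0) and NDUFV1 with 12 (6.20 to 21.0) were marked in lipid overload only. NDUFS1 and NDUFS7 had no peak in either list.

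The 30 accessory subunit genes of complex I, which surround the core, were marked in 20 cases in lipid overload and in 9 in mock. As shares these were 66.7% and 30%, beside 43.4% and 13.4% of coding genes. NDUFA11 had the highest fragment number of all members, 77 in lipid overload (60.8 to 96.2, chr19:5903897-5904894) and 24 in mock (15.4 to 35.7). Its summits lay 718 bp upstream of NDUFA11 in lipid overload and 698 bp upstream in mock, and were nearer to the coding gene VMAC, at 364 and 384 bp. NDUFA8 had 23 fragments in lipid overload (14.6 to 34.5, chr9:122159567-122159906) and 8 in mock (3.45 to 15.8). NDUFA2 had 21 in lipid overload and 8 in mock, in a peak that also reaches TMCO6 and IK.

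The other 4 accessory genes marked in both lists had 20 fragments or fewer in lipid overload. NDUFV3 had 20 fragments in lipid overload and 5 in mock, and NDUFB2 had 15 in lipid overload and 5 in mock. NDUFA6 had 15 in lipid overload and 11 in mock, and NDUFB4 had 6 in lipid overload and 5 in mock. For these last 2 genes the lipid-overload intervals (8.40 to 24.7 and 2.20 to 13.1) took in the mock numbers, although the lipid-overload library was the deeper one.

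In lipid overload only, NDUFA7 had 21 fragments at its 3′ end (13.0 to 32.1), in a peak nearer to CD320, and a second peak of 16 at its start. NDUFB7 had 16 fragments, NDUFA3 14, and NDUFA12 and NDUFB10 11 each. NDUFA13, also known as GRIM-19, had 10, NDUFS5 9, and NDUFB1 and NDUFC2 8 each. The weakest were NDUFB9 with 6 and NDUFA1, NDUFB5 and NDUFS4 with 5 each. Mock alone marked NDUFS6 with 8 fragments (3.45 to 15.8), at its 3′ end, and NDUFA9 with 4 (1.09 to 10.2). No peak was listed for NDUFA5, NDUFA10, NDUFAB1, NDUFB3, NDUFB6, NDUFB8 and NDUFB11. NDUFAB1 is the acyl carrier protein of mitochondria and also serves fatty acid synthesis there.

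Of the 8 assembly factors of complex I, named NDUFAF1 to NDUFAF8, 6 were marked in lipid overload (75%, 34.9 to 96.8) and 0 in mock (0 to 36.9%). The coding shares of 43.4% and 13.4% lie within these intervals. NDUFAF6 had 20 fragments (12.2 to 30.9) and NDUFAF8 13 (6.92 to 22.2). NDUFAF1 had 9, NDUFAF2 and NDUFAF4 8 each, and NDUFAF7 7. NDUFAF3 had its lipid-overload peak inside the gene, and NDUFAF5 had none.

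Complex II, succinate dehydrogenase, links the citric acid cycle to the chain and is encoded wholly in the nucleus. All 4 of its subunit genes carried a gene-end peak in lipid overload (39.8 to 100%) and 2 of them in mock (6.76 to 93.2%). Both intervals take in the coding shares of 43.4% and 13.4%. SDHA, the flavoprotein that oxidises succinate, had 52 fragments in lipid overload (38.8 to 68.2, chr5:218075-218828) and 13 in mock (6.92 to 22.2). SDHB, the iron-sulfur subunit, had 22 in lipid overload (13.8 to 33.3, chr1:17053848-17054334) and 5 in mock (1.62 to 11.7). The membrane anchors SDHD with 11 fragments and SDHC with 6 were marked in lipid overload only. Assembly factors SDHAF2 with 16 fragments, and SDHAF3 and SDHAF4 with 6 each, were also marked in lipid overload only, and SDHAF1 had no peak.

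SDHA also held 4 further peaks inside the gene in lipid overload, with 11, 5, 32 and 24 fragments, and 2 in mock, with 8 and 12. These are uncertain, because near-identical copies of SDHA exist elsewhere and their reads cannot always be told apart. Of the 4 transcribed pseudogenes SDHAP1 to SDHAP4, the best peaks within 1 kb held 35, 39, 24 and 4 fragments in lipid overload and 11, 12, 11 and 5 in mock. Of the 204 annotated pseudogenes named after other members, 9 had a peak inside or within 1 kb in lipid overload (4.41%, 2.04 to 8.21) and 1 in mock (0.490%, 0.0124 to 2.70). Over all 16474 pseudogenes these shares were 4.63% in lipid overload and 1.86% in mock.

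Complex III passes electrons from ubiquinol to cytochrome c. Of its 9 genes, 7 were marked in lipid overload (77.8%, 40.0 to 97.2) and 0 in mock (0 to 33.6%). Both intervals take in the coding shares of 43.4% and 13.4%. UQCRC1, a core protein, had 41 fragments in lipid overload (29.4 to 55.6, chr3:48609567-48609927), the best-ranked peak among members without a mock peak. UQCRQ had 20 fragments (12.2 to 30.9), UQCRB 16 (9.15 to 26.0), and UQCRH 13 in a peak nearer to LRRC41. The second core protein gene UQCRC2 had 10, UQCR11 8, and UQCRFS1, which encodes the Rieske iron-sulfur protein, 7. UQCR10 and the intronless copy UQCRHL had no peak.

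Complex IV, cytochrome c oxidase, reduces oxygen. It had the lowest share of the 5 complexes in lipid overload, with 7 of 17 genes marked (41.2%, 18.4 to 67.1), near the 43.4% of coding genes. In mock 3 of 17 were marked (17.6%, 3.80 to 43.4), beside 13.4% of coding genes. The 17 include the tissue-restricted COX4I2, COX6A2, COX6B2, COX7A1, COX7B2 and COX8C, of which lipid overload marked only COX7A1. They also include COX7A2 and COX7A2L, whose lipid-overload peaks lay inside the gene near another annotated start and were not counted here. COX8A, a small subunit of the ubiquitous form, had 42 fragments in lipid overload (30.3 to 56.8, chr11:63974284-63974648) and no mock peak. COX6A1 had 23 fragments in lipid overload (14.6 to 34.5) and 5 in mock (1.62 to 11.7), and COX5A had 12 in lipid overload (6.20 to 21.0) and 8 in mock (3.45 to 15.8). COX6B1 with 17 fragments, COX5B with 13 and COX4I1 with 12 were marked in lipid overload only. COX7A1, a heart and muscle isoform, had 13 fragments in a peak nearer to CAPNS1 (171 bp) than to itself (740 bp).

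Some subunits are tissue-restricted or copies of another gene. Of 8 such members (COX4I2, COX6A2, COX6B2, COX7A1, COX7B2, COX8C, UQCRHL and ATP5MGL), 1 carried a gene-end peak in lipid overload, COX7A1 (12.5%, 0.316 to 52.7), and 1 in mock, COX6B2 with 7 fragments (12.5%, with the same interval). The interval takes in the coding shares of 43.4% in lipid overload and 13.4% in mock. Of the other 92 members, 64 were marked in lipid overload (69.6%, 59.1 to 78.7) and 20 in mock (21.7%, 13.8 to 31.6). COX6C, COX7B and COX7C, of the ubiquitous form, also had no peak. Expression was not measured, and its part in these counts was not tested.

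ATP synthase turns the proton gradient into ATP. Of its 20 genes, 13 were marked in lipid overload (65%, 40.8 to 84.6) and 5 in mock (25%, 8.66 to 49.1). The coding shares of 43.4% and 13.4% lie within these intervals. In the catalytic head and central stalk, 3 of 5 genes were marked, the same 3 in both lists. ATP5F1B, the catalytic beta subunit, had 41 fragments in lipid overload (29.4 to 55.6, chr12:56645900-56646366) and 19 in mock (11.4 to 29.7). ATP5F1C, the gamma subunit of the rotor, had 11 in lipid overload and 5 in mock, and ATP5F1E, the epsilon subunit, 9 in lipid overload and 5 in mock. ATP5F1D had no peak.

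All 4 genes of the peripheral stalk, which holds the head still, were marked in lipid overload (39.8 to 100%). The interval takes in the 43.4% of coding genes. ATP5PO, also called OSCP, had 26 fragments (17.0 to 38.1, chr21:33915543-33915958), ATP5PF 14 and ATP5PD 13, with no mock peak. The ATP5PF peak lay within the annotated gene, with its summit 22 bp downstream of an annotated ATP5PF start, and also lay within 1 kb of an end of GABPA, which encodes the DNA-binding subunit of GABP. ATP5PB had 15 fragments in lipid overload and 7 in mock, in separate peaks. Among the c-ring genes, whose proteins are identical once imported, ATP5MC1 had 29 fragments in lipid overload (19.4 to 41.6) and 6 in mock (2.20 to 13.1), and ATP5MC3 had no peak. Of the small membrane subunits, ATP5MK had 19 fragments, ATP5MF 18 and ATP5MJ 10, in lipid overload only. ATP5ME, ATP5MG and ATP5MGL had no peak. ATP5IF1, which blocks the enzyme when the gradient collapses, had 10 fragments (4.80 to 18.4) in lipid overload only.

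The read-through genes ATP5MF-PTCD1 and NDUFC2-KCTD14 begin where ATP5MF and NDUFC2 begin and share their peaks, of 18 and 8 fragments. The 65 genes marked in lipid overload therefore stood on 63 different best peaks.

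**Figure D3:**
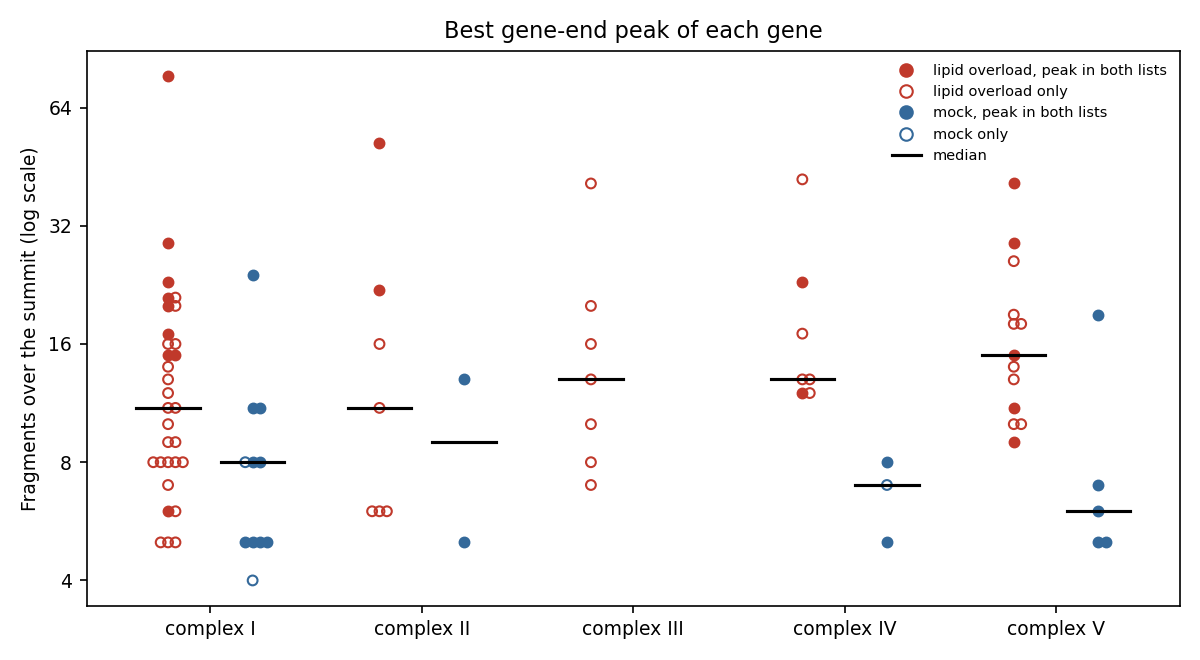
Fragments over the summit of the best gene-end peak (y axis, log scale) of each marked member by complex, in lipid overload (red, left) and mock (blue, right). Filled points are genes with a peak in both lists, open points genes with a peak in 1 list, and black lines are medians. Complex III has points in lipid overload only.

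At 6 members the peaks lay inside the gene only, and each of these had a lipid-overload peak within 1 kb of another annotated start. ATP5MC2, of the c-ring, had 24 fragments in lipid overload (15.4 to 35.7) and 9 in mock (4.12 to 17.1), at 11 bp from an annotated start in lipid overload and 34 bp in mock. COX7A2L, which helps to join complexes III and IV, had 17 fragments in lipid overload and 6 in mock, at 395 bp from one in lipid overload and 304 bp in mock. NDUFAF3 had 18 fragments and COX7A2 14, in lipid overload only, 193 and 327 bp from one. ATP5F1A, the alpha subunit of the catalytic head, had 5 fragments in each library, at 205 and 298 bp in lipid overload and mock. NDUFC1 had 8 fragments in lipid overload and 5 in mock at a site over 5 kb from any annotated start, and a second lipid-overload peak of 7 fragments 124 bp from one.

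Many peaks were shared with a neighbouring gene. Without the 2 read-through genes, 28 of the 63 members marked in lipid overload had a best peak that also lay at an end of another coding gene (44.4%, 31.9 to 57.5), against 31.9% of all marked coding genes, a share that still counts read-through partners. In 14 of the 28 the summit was nearer to the neighbour. With each peak given only to the nearest gene, 52 members were marked in lipid overload and 19 in mock, against 37.9% of coding genes in lipid overload and 11.3% in mock. SDHA shares its peak with CCDC127, NDUFA8 with MORN5, UQCRQ with GDF9, ATP5MK with PDCD11, and SDHD with TIMM8B, an import chaperone of mitochondria. Which of 2 adjoining genes such a peak belongs to cannot be told apart.

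At the 18 members marked in both lists the fragment number was higher in lipid overload at every gene, by a median of 2.76 times. The best peaks of the 2 lists overlapped at 16 of the 18, at NDUFS8 only at their edges, and separate peaks were compared at ATP5PB and NDUFS3. At NDUFS3 a second lipid-overload peak, of 14 fragments, overlapped the mock peak but was not the one compared. The set holds only genes whose mock peak passed calling, and the effect of this on the ratio was not tested. The ratio ran between 1.20 at NDUFB4 and 4.83 at ATP5MC1. Divided by the 2.62 times greater depth, the median was 1.05. At 11 genes the ratio stood above the depth ratio, and at 0 genes did its interval exclude the depth ratio, in either direction. The ratio was 3.21 at NDUFA11 (2.01 to 5.31), 4 at SDHA (2.15 to 8.01) and 2.16 at ATP5F1B (1.22 to 3.94). Over the 2390 coding genes marked in both lists the median ratio was 2.57, with quartiles of 2.00 and 3.33. A change beyond depth at these members was therefore not detectable at these fragment numbers.

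**Figure D4:**
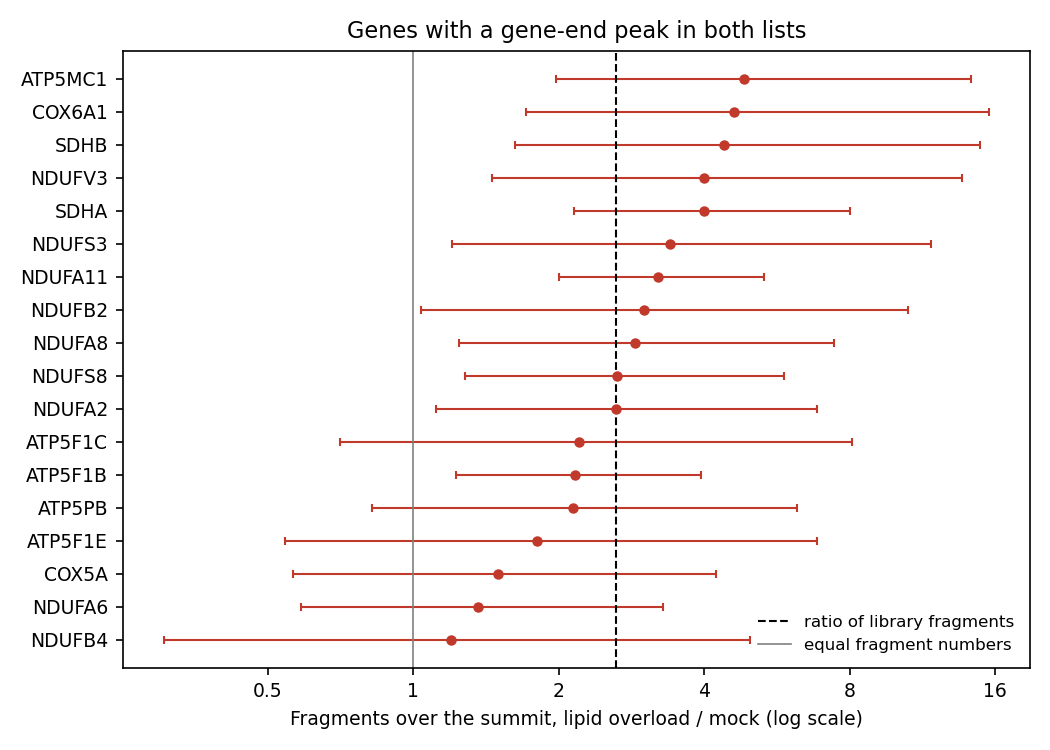
Ratio of fragments over the summit, lipid overload over mock (x axis, log scale), for the 18 members with a gene-end peak in both lists. Bars are 95% intervals for counting error, the dashed line is the ratio of library fragments (2.62) and the grey line marks equal numbers. Every bar crosses the dashed line. At ATP5PB and NDUFS3 the ratio compares best peaks that do not overlap, although a weaker lipid-overload peak at NDUFS3 overlaps the mock peak.

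The 47 members marked in lipid overload only had fewer fragments than those marked in both, with a median of 11 (5 to 42) against 20.5 (6 to 77) in lipid overload. A gene is marked in both only if it was also called in the shallower mock library, so this order is not independent of the grouping. Scaled to mock depth, 38 of the 47 would hold at least 3 fragments, the lowest number of any mock peak, and 16 at least 5, the mock median. At the genes below these numbers a difference between conditions was not detectable at this depth.

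Genes that serve the chain but fall outside the symbol rule were counted in the same way. Of 26 genes for cytochrome c and further assembly factors, 21 carried a gene-end peak in lipid overload (80.8%, 60.6 to 93.4) and 5 in mock (19.2%, 6.55 to 39.4). Beside these stood 43.4% and 13.4% of coding genes, the latter within the mock interval. The best peaks in lipid overload were at FOXRED1 (37 fragments) and ACAD9 (30), which assemble complex I, and at COX17 (19) and COX14 (32), which assemble complex IV, none with a mock peak at a gene end. CYCS, which encodes cytochrome c, had 21 fragments in lipid overload (13.0 to 32.1) and 12 in mock (6.20 to 21.0). Of 13 genes that control respiratory genes or mitochondrial DNA, 8 were marked in lipid overload (61.5%, 31.6 to 86.1, beside 43.4% of coding genes) and 5 in mock (38.5%, 13.9 to 68.4, beside 13.4%). ESRRA had 32 fragments in lipid overload and 13 in mock, YY1 had 23 in lipid overload and 8 in mock, and TFB2M 16 in lipid overload and 7 in mock, while GABPA had 14 in lipid overload only, in the peak it shares with ATP5PF.

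Mitochondrial ribosomal protein genes, another set of short nuclear genes, had similar counts. Of 77 such genes, 49 were marked in lipid overload (63.6%, 51.9 to 74.3) and 16 in mock (20.8%, 12.4 to 31.5). The shares of coding genes were 43.4% and 13.4%. Of 48 SLC25 carrier genes, 26 were marked in lipid overload (54.2%, 39.2 to 68.6) and 8 in mock (16.7%, 7.48 to 30.2), and both intervals take in the coding shares. Of 9 hepatocyte genes, 1, CEBPA, was marked in lipid overload and 0 in mock, and peak lists measure no expression, so this says nothing of the cell type. No test between these groups and the respiratory genes was run, and the share of marked genes is not shown to be particular to the respiratory chain.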

How the data were processed

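γH2AX CUT&Tag peak lists of 2 libraries were analysed, 1 per condition, grouped by sample title. Peaks were called per sample. Per the submitters' processing notes, the tools were MACS2 2.1.2, BWA, deepTools and FastQC, on hg38. Not given in the sources used here are their settings and whether the IgG libraries served as control. The deposited score, fold enrichment (a linear ratio), −log10 p and −log10 q of each peak are the authors' own. They were used only inside each list.

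Fragments over a summit were solved from fold, taken as fragments plus 1 over background plus 1, and the Poisson tail p. A whole number matched within 0.0001 in log10 p at 100% of peaks. The step was tested on simulated data. Depth was compared through the lowest background (0.289 fragments in lipid overload, 0.121 in mock) divided by fragment length (124 and 137 bp, read from the steps of the local background, taking 2 fragment ends in 10 kb per fragment).

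Gene ends came from RefSeq, without 718 genes (171 protein-coding) that break position order by over 1 Mb. Strand and starts came from the promoter table. Motifs were searched in 1 window per gene, the start nearest the outer 5′ end. Overlap needed 1 bp.

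Members and lists were chosen with earlier results of these data known. Named were all members marked in both lists or in mock only, the 10 best in lipid overload only, the best 2 of each class, members with inside peaks only or no peak, the tissue-restricted subunits, and 4 genes of each further list, by −log10 q, then fold. Other genes were named after their values were seen. One item is not reported here by name. NDUFA4L2 was not found under that symbol. Motif and G+C splits were chosen after the lists had been read. Python 3.11.15, numpy 2.4.6 and scipy 1.17.1 were used. No test between conditions was possible with 1 library each.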

Additional observations from a re-analysis of the deposited data

How the results depend on the processing

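Of 58 counts and values recomputed under other settings, 44 stayed within 1.5 times their first value (the ratio, within 1 SD over the 18 genes) and 14 moved. With −log10 q of at least 5, mock marked 8 members at gene ends, 9 anywhere and 7 of 82 at the 5′ end (8.54%). The coding shares were then 3.84%, 5.59% and 3.65%. With a fold of at least 5 the mock counts were 11, 14 and 9 of 82 (11.0%), against 8.11%, 12.3% and 7.90% of coding genes. With equal list lengths, lipid overload marked 39 members at gene ends, 23 of them only there, 43 anywhere and 33 of 82 at the 5′ end (40.2%). Beside these stood 25.9%, 15.9%, 32.6% and 26.1% of coding genes. With lipid-overload peaks kept only where they reach the mock median at mock depth, lipid overload marked 30 members at gene ends and 34 anywhere. Of the 30, 16 had no mock peak at a gene end. Beside these 30, 34 and 16 stood 19.6%, 24.5% and 11.3% of coding genes. This setting, the count without the read-through genes and that over all annotated starts were added once values were known. The median fragment ratio of 2.76 was 1.05 after division by the depth ratio. The cuts on q, fold, list length and fragments keep fewer peaks by construction. No paired analysis was possible because each group holds 1 library. The lists hold called peaks only, so a gene without a peak may still carry fragments below the calling threshold, and the mock library was the shallower one.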

Other observations

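The number of marked members per chromosome was small, and no test of evenness was run. On chromosome 11, 8 of 9 members carried a gene-end peak in lipid overload and 2 in mock, where 42.5% of its coding genes did in lipid overload and 14.1% in mock. The 8 include NDUFC2 and the read-through gene NDUFC2-KCTD14, which share a single peak. Chromosome 19, with 13 members, had 9 in lipid overload and 2 in mock, beside 47.5% of coding genes in lipid overload and 13.5% in mock. On chromosome 2 2 of 7 members were marked in lipid overload and 0 in mock, beside 41.5% of coding genes in lipid overload and 11.6% in mock, and on chromosome 4 0 of 3 members in both libraries, where 25.7% of coding genes were marked in lipid overload and 5.76% in mock. The pseudogene COX6B1P5 on chromosome 4 had a lipid-overload peak of 38 fragments within 1 kb and none in mock.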
